A study of Mus musculus with 3 samples.

Results

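The ephrin, semaphorin and Slit guidance genes comprise 64 of the 21851 protein-coding mouse genes annotated on placed chromosomes. They encode the Eph receptors and their ephrin ligands, the semaphorins of classes 3 to 7 with their plexin and neuropilin receptors, the Slits with their Robo receptors, and the Unc5 receptors. The rule uses gene symbols and no measured value, but the gene families were picked with earlier results of these data known. A peak of the GLI3 list was assigned to a gene when its summit lay within 50 kb of a transcription start site (TSS) of that gene or inside the gene body. Of the 17149 listed peaks, 197 met this rule. A peak with an FDR under 0.05 is called a GLI3 peak throughout, and there were 7282 of these in the list. The remaining listed peaks, of weaker enrichment, are said to lie beyond the threshold. Of the 197 peaks at guidance genes, 86 were GLI3 peaks (43.7%), and over the whole list the share was 42.5%.

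The Hedgehog (HH) pathway transcription factor GLI3 was mapped by chromatin immunoprecipitation and sequencing (ChIP-seq) in E10.5 mouse forelimb buds from embryos of 32 to 35 somites on a mixed strain background. There were 2 ChIP replicates and 1 input library without immunoprecipitation, and the labels give 2 litters of limb buds for each reaction. The genotype label reads wild type for all 3 libraries, while the study's methods describe an endogenous Gli3 allele that carries a FLAG tag. Dissociated whole forelimb buds were used, so the list does not say in which cells of the bud a site was occupied, and it holds no expression values against which the tissue could be checked. The authors' list gives 1 set of values per peak and none per replicate. No difference could therefore be set against the spread between replicates, and no test is given. The 95% Wilson intervals beside shares cover counting error over genes or peaks and nothing else. The study's methods give only a minimum read number per sample, and the list gives no read totals, so the depth behind each peak is unknown. As a check of the ChIP, the HH target genes Ptch1 and Gli1 held 6 GLI3 peaks with a median log2 fold enrichment over input of 4.51, and 5 of the 6 contained a GLI motif.

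Guidance molecules were named for steering axons, and they also direct cell sorting, vessel growth and muscle innervation. Ephrins are membrane-bound ligands that signal to Eph receptor tyrosine kinases on neighbouring cells, and Eph signaling in the limb is known for separating groups of mesenchymal cells and for the choice of motor axons between dorsal and ventral muscle. Class 3 semaphorins are secreted and act through neuropilins and plexins, whereas most members of classes 4 to 7 are anchored in the membrane and bind plexins. Slits are large secreted proteins that repel Robo-bearing cells and axons, and Unc5 proteins are repulsive receptors for netrins.

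The GLI consensus GACCACCCA, or its reverse complement TGGGTGGTC, was searched with at most 1 mismatch within 250 bp to either side of each summit. The matches printed here are those of the 5 highest-ranked GLI3 peaks of guidance genes that held one. They are followed by the exact consensus, which occurred in no GLI3 peak of these genes but in listed peaks of Slit3. The last 2 sequences show the closest words in strong peaks without a match. All come from GRCm38 (mm10), are read 5′ to 3′ on the strand of the match, and carry the matched words in capitals. Substitutions give the consensus base, the position counted from 1 at the 5′ end of the consensus, and the base found.
Plxnb1 promoter (rank 64, chr9:109095138-109095166, plus strand, A5G): gggcggggcgGACCGCCCAcgctcccggc
Efna4 promoter (rank 509, chr3:89337602-89337660, minus strand, A9T): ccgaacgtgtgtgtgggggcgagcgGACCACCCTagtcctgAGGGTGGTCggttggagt
Slit3 intron (rank 618, chr11:35655964-35656022, minus strand, C7A): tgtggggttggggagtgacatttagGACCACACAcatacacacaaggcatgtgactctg
Slit3 promoter (rank 1141, chr11:35121715-35121773, plus strand, A2G): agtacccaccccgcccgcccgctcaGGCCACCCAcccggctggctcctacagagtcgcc
Efna2 window, promoter of Midn (rank 1149, chr10:80149367-80149425, minus strand, A5C): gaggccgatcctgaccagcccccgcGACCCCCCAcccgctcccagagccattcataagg
Slit3 exact consensus (ranks 9383 and 12577, chr11:35507950-35508008, plus strand): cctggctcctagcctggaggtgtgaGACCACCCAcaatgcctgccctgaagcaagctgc
Sema4a window, 2 mismatches (rank 40, chr3:88510168-88510226, minus strand, G1A and C7A): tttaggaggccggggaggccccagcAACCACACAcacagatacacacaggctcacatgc
Sema5a intron, 2 mismatches (rank 470, chr15:32447579-32447637, minus strand, C8A and A9T): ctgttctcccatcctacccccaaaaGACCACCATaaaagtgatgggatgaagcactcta
The Efna4 stretch held a pair of matches, the same word GACCACCCT once on each strand. The highest-ranked peak of the guidance genes, at the Ephb3 promoter, had no word with 2 or fewer mismatches in its window and so has no line here.

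To ask how often the guidance genes lay near GLI3 binding, genes with at least 1 peak were counted. A GLI3 peak was found at 44 of the 64 genes (68.8%, 56.6 to 78.8), and at 39.4% of all protein-coding genes. A listed peak of any FDR was found at 57 of 64 (89.1%, 79.1 to 94.6), and at 59% of all genes. The rule reaches far, so the count was repeated with each peak given only to the gene of its nearest TSS. Then 39 guidance genes (60.9%, 48.7 to 71.9) held a GLI3 peak, and 21.6% of all genes did. At their own promoters, from 2 kb before to 1 kb after a TSS, 21 guidance genes had a GLI3 peak (32.8%, 22.6 to 45.0), and 17.2% of all genes did. All of these intervals lay above the share over all genes.

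**Figure D1:**
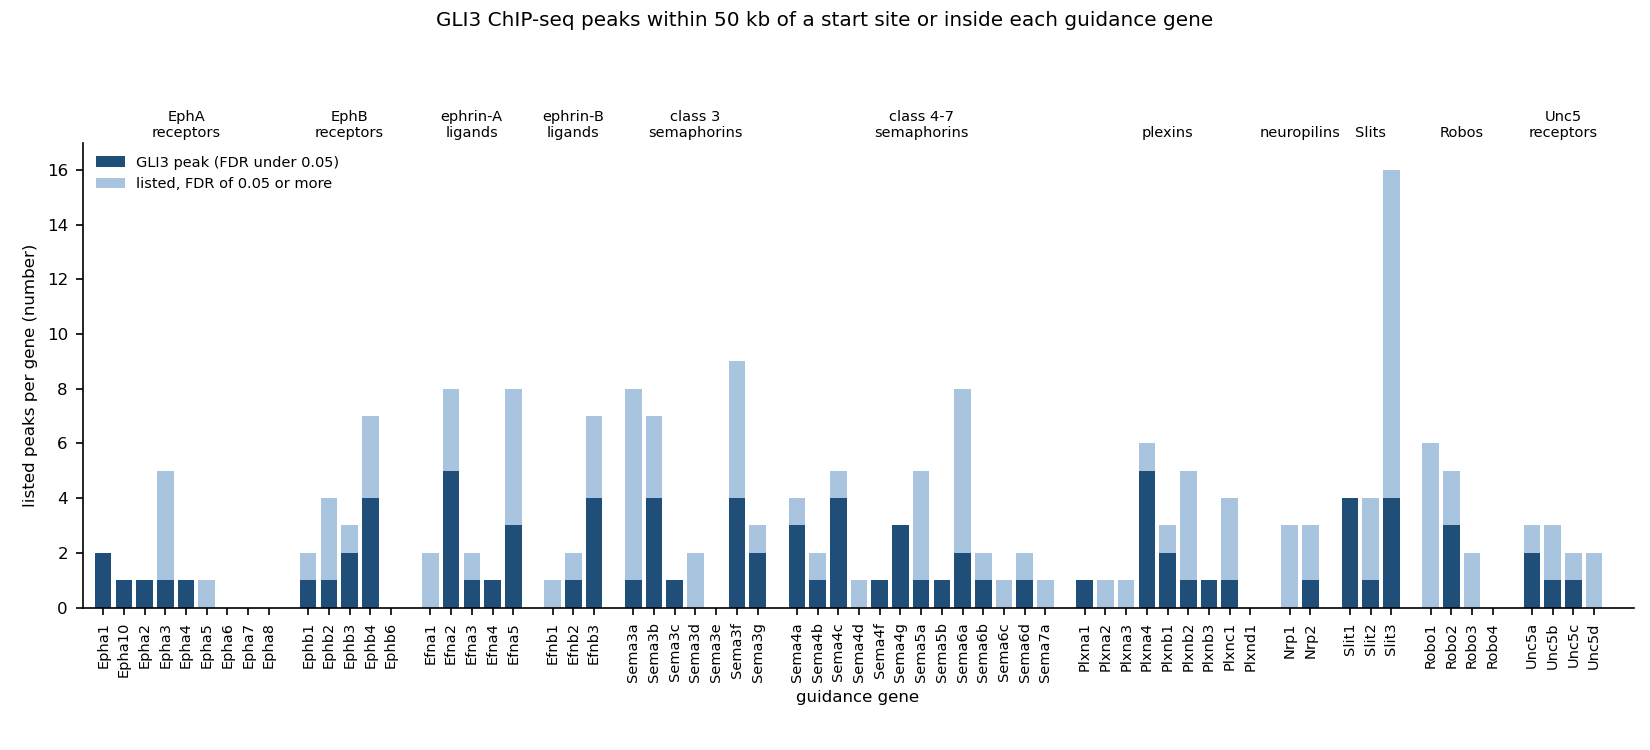
Number of listed peaks (y axis) at each of the 64 guidance genes (x axis), grouped by family; dark bars are GLI3 peaks with an FDR under 0.05 and pale bars are listed peaks with an FDR of 0.05 or more. Slit3 had 16 listed peaks, 4 of them GLI3 peaks, while Efna2 and Plxna4 had 5 GLI3 peaks each and 7 genes had no listed peak.

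The windows take in whole genes and their neighbours, so the count was also made by gene length and by number of neighbouring genes. The median length was 45.1 kb for guidance genes and 17.4 kb for all genes, and 34.4% of guidance genes against 6.75% of all genes spanned 150 kb or more. Within each length class the share of guidance genes with a GLI3 peak remained the higher one. It was 67.9% (19 of 28) against 38.9% under 30 kb, 78.6% (11 of 14) against 38.8% from 30 to 150 kb, and 63.6% (14 of 22) against 46.6% at 150 kb or more. For the longest class the interval of the guidance genes, 43.0 to 80.3%, included the share over all genes. Across the 64 genes length and number of GLI3 peaks had a Spearman's rho of -0.121, as a description over genes whose windows partly overlap.

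The neighbourhood was counted as the number of other protein-coding genes with a TSS in the same windows, a comparison chosen after the peak counts were seen. Its median was 0 for guidance genes and 2 for all genes, and its Spearman's rho with the number of GLI3 peaks was 0.214 over the 64 genes and 0.243 over all. Among genes with 0 or 1 such neighbour, 26 of 42 guidance genes had a GLI3 peak (61.9%, 46.8 to 75), and 30.5% of all genes did. With 2 to 4 neighbours it was 9 of 10 against 42.4%. With 5 or more neighbours the guidance genes (9 of 12, 75%, 46.8 to 91.1) were not distinguishable from all genes (59.5%) at this number. The part of either property in the overall difference was not tested.

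**Figure D2:**
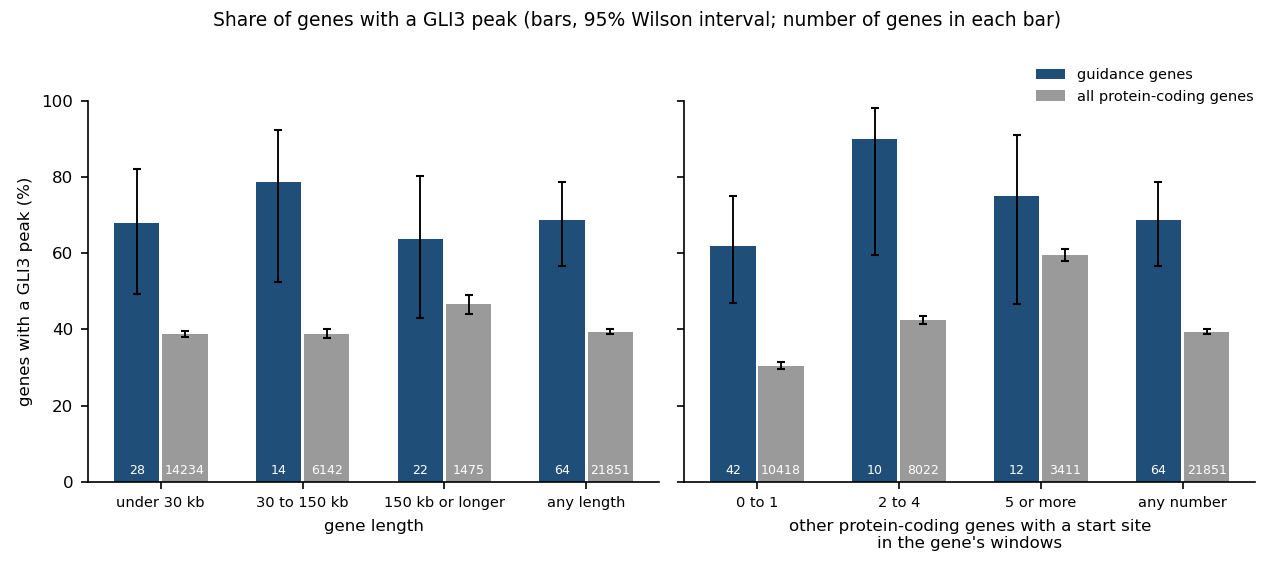
Percent of genes with a GLI3 peak (y axis) by gene length and by number of other protein-coding genes in the windows (x axes), for the guidance genes and for all protein-coding genes; error bars are 95% Wilson intervals and the number in each bar is the number of genes. The bar of the guidance genes is the higher one in every class, by least where 5 or more other genes shared the windows.

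The peaks were unevenly spread. Of the 64 genes, 20 had no GLI3 peak, 25 had 1, 10 had 2 or 3, and 9 had 4 or 5. At least 4 were found at 14.1% of guidance genes and 3.44% of all genes. The 9 were Efna2 and Plxna4 with 5 each and Ephb4, Efnb3, Sema3b, Sema3f, Sema4c, Slit1 and Slit3 with 4 each. Among them Slit1, Slit3 and Plxna4 are long genes with 0 other genes in their windows, whereas Efna2, Efnb3, Ephb4, Sema3b and Sema4c are short genes with 3 to 7 neighbours, and Sema3f has 2. Over the 14.4 Mb covered by the windows there were 5.99 GLI3 peaks per Mb, against 3.95 over the windows of all protein-coding genes. The value rests on the windows, being 10.6 per Mb without gene bodies, and the number of peaks fell from 86 to 53 with a distance of 10 kb. Values over all genes at these settings are not given, so the difference was compared for the main windows only.

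To compare ligands and receptors, the genes were divided by the role of their products. A GLI3 peak was found at 24 of 31 ligand genes (77.4%, 60.2 to 88.6) with 53 peaks in all, and at 20 of 33 receptor genes (60.6%, 43.7 to 75.3) with 33 peaks. The intervals overlapped. The larger number at ligand genes lay mostly in peaks nearer to another gene, which included all 5 at Efna2, all 4 at Sema3b and all 3 at Sema4a. Counting only peaks whose nearest TSS was that of a gene in the group, ligand genes had 27, at 17 genes, and receptor genes had 25, also at 17. Per Mb the ligand windows held 8.65 peaks and the receptor windows 4.004, but the windows themselves differed, with a median gene length of 29.0 and 69.0 kb and a median of 1 and 0 neighbouring genes. The part of these properties in the densities was not tested. A GLI3 peak at the gene's own promoter was found at 11 ligand and 10 receptor genes.

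The 15 highest-ranked GLI3 peaks of guidance genes were examined one by one. Of these, 12 belonged to ligand genes and 3 to receptor genes, 6 overlapped the promoter of a guidance gene, 9 were distal, and 3 held a GLI motif. All had an FDR of 0 as listed. For 11 of the 15 the nearest protein-coding TSS was that of a guidance gene, 8 of them ligand and 3 receptor genes. The other 4 (ranks 40, 618, 982 and 1077) were all counted for ligand genes.

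Ephb3, a receptor for ephrin-B ligands, had the strongest. This peak lay on chr16:21210650-21211649 with its summit 78 bp before the nearest of 2 annotated TSSs, ranked 38 in the whole list, and had a maximum log2 fold enrichment over input of 4.85. A second GLI3 peak (rank 1516, log2 3.14) lay 35.0 kb downstream of the same TSS. The peak ranked 64 (log2 4.61) spanned the start of Plxnb1, a plexin that binds Sema4d, on chr9:109094600-109096049 with its summit 97 bp before the TSS. In both receptor genes the summit lay within 100 bp of an annotated TSS, which for Ephb3 is an internal one, since the summit was 6.26 kb inside the 5′ end of the gene.

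Between them in rank was a peak whose assignment rests on distance alone. It lay on chr3:88509800-88510499 (rank 40, log2 4.83), 49.0 kb from the nearest start of Sema4a, a membrane semaphorin, and 6867 bp before that of Lmna, which encodes nuclear lamins. It was just inside the 50 kb limit. Sema4a had 2 further GLI3 peaks, at the promoters of Lmna (rank 2725, log2 2.85) and Pmf1 (rank 3245, log2 2.75), and none nearest to its own start. All 3 of its GLI3 peaks were thus closer to another gene.

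The next peaks in order were at semaphorin genes. Sema5a, a transmembrane semaphorin with thrombospondin repeats, had one in an intron at chr15:32447600-32448299 (rank 470, log2 3.72), 203 kb into the gene. The peak ranked 474 (log2 3.72) was intergenic, 6637 bp before the start of Sema3f at chr9:107716900-107717349. The one ranked 495 (log2 3.71), at chr1:36588350-36589149, lay 30.3 kb upstream of Sema4c, in an intron of another protein-coding gene. At each of these 3 the nearest TSS was that of the semaphorin.

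Next in rank came Efna4, described here together with the other ephrin-A genes of this set. The peak ranked 509 (log2 3.70) lay in the promoter of Efna4 at chr3:89337300-89338299, 326 bp downstream of the start, and was the only GLI3 peak shared by a pair of guidance genes, since Efna3 lies beside Efna4. Efna5 had a promoter peak at chr17:62883000-62883699 (rank 976, log2 3.38), 1820 bp before a TSS. Efna2 was near the peak ranked 1077 (chr10:80149900-80152799, log2 3.32), which lay 28.6 kb upstream of it and 2570 bp inside Midn.

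Of the remaining members of this set, the Slit3 peak ranked 618 (chr11:35655900-35656299, log2 3.60) lay 535 kb into the gene, with Pank3 as the gene of the nearest TSS, 113412 bp away. Plxna1, a plexin that pairs with neuropilins, had its single listed peak in an intron 12.5 kb from a TSS and 17.4 kb from the 5′ end (rank 704, chr6:89345000-89345399, log2 3.53). The peak at chr11:69560100-69561699 (rank 750, log2 3.50) was 1002 bp before the start of Efnb3. Sema6d had one at its promoter (rank 947, chr2:124609650-124610699, log2 3.39), 269 bp before a TSS. The peak ranked 982 (chr9:107630500-107630899, log2 3.37) was 21.5 kb from Sema3b and 4600 bp inside Gnai2, which encodes an inhibitory G protein subunit. The last, ranked 1102 (chr19:41716250-41716549, log2 3.31), lay in an intron of Slit1, 27.1 kb from the start.

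**Figure D3:**
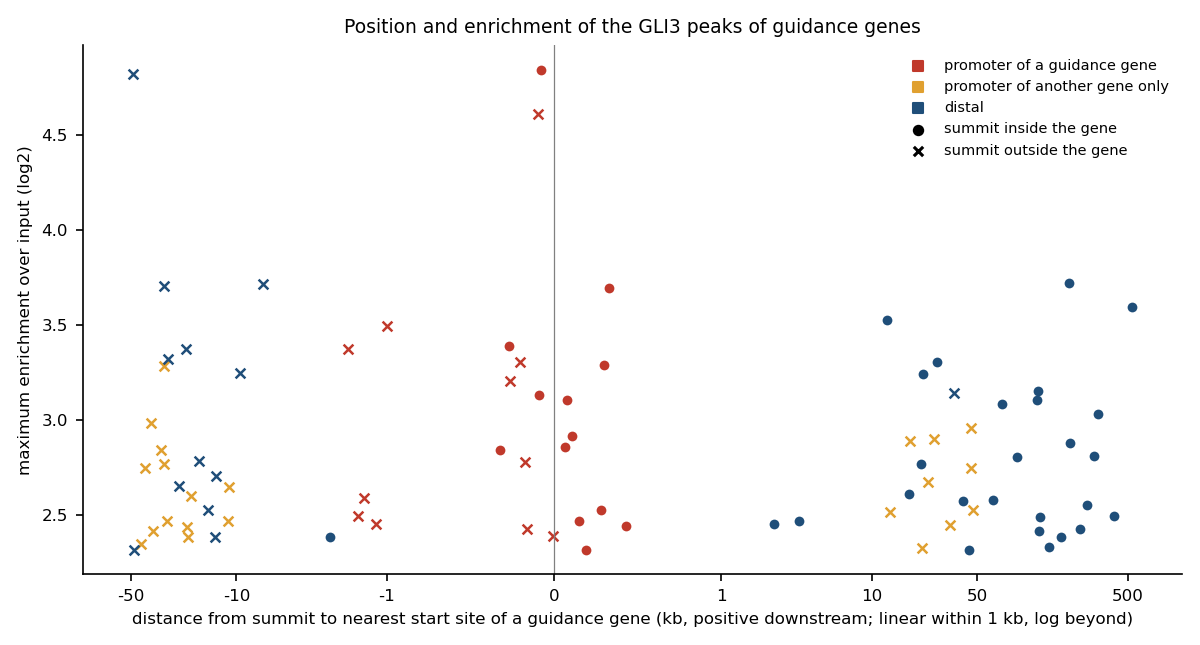
Maximum log2 fold enrichment over input (y axis) of the 86 GLI3 peaks of guidance genes against the signed distance in kb from the summit to the nearest start site of a guidance gene (x axis, linear within 1 kb and logarithmic beyond), coloured by promoter class, with circles for summits inside the gene and crosses for summits outside it. The promoter peaks of guidance genes reach log2 4.85, and the distal peak at log2 4.83 sits at the 50 kb limit.

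Among the ephrin genes, 6 of 8 had a GLI3 peak, namely Efna2, Efna3, Efna4, Efna5, Efnb2 and Efnb3. Efna2 had the most. Its 5 peaks had log2 values of 3.32, 3.29, 2.99, 2.53 and 2.47, and each lay nearest to the start of another gene, in turn Midn for the first pair, then Atp5d, Mum1 and Cirbp. Efnb3 had 4, with log2 values of 3.50, 2.60, 2.52 and 2.44. Only the first was at Efnb3 itself, and the others were at promoters of Trp53, which encodes p53, and of Dnah2, a dynein heavy chain. Efna5, the longest ephrin gene at 277 kb, had 3 GLI3 peaks that all lay nearest to its own starts, 2 of them at a promoter (log2 3.38 and 2.50) and 1 in an intron 151 kb away (log2 2.34). Efna1 and Efnb1 had listed peaks only beyond the threshold, with highest log2 values of 2.02 and 2.15. For Efnb2 the single GLI3 peak was at the promoter of Arglu1 (rank 5500, log2 2.47).

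Among the 14 Eph receptor genes, 9 had a GLI3 peak. In the EphA family these were Epha1 with 2 peaks and Epha2, Epha3, Epha4 and Epha10 with 1 each. Of the Epha1 peaks, one was at the promoter of Zyx (rank 3771, log2 2.67) and one in an intron of Epha1, 3301 bp from the start (rank 5463, log2 2.47). Epha4, which steers motor axons in the limb, had a GLI3 peak 1179 bp before its start (rank 5648, log2 2.45) with a GLI motif 10 bp from the summit. Epha3 had one 188 bp from a TSS with a log2 value of 2.32, close to the FDR threshold. The peak of Epha2 was 9523 bp upstream (rank 1226, log2 3.25). Epha6, Epha7 and Epha8 had no listed peak, and Epha5 had 1 beyond the threshold. The windows of the 9 EphA genes, with a median length of 147.9 kb, held 2.32 GLI3 peaks per Mb, and 3.78 without Epha6, a long gene with 0 peaks.

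EphB genes, with a median length of 28.6 kb, had 8 GLI3 peaks at 4 of 5 genes, or 7.78 per Mb. That density was 4.31 without Ephb4 and 12.8 without Ephb1, so neither family's value is independent of single genes. Both also rest on the windows, being 6.66 per Mb for EphA and 13.8 for EphB genes without gene bodies. Ephb4, the receptor of ephrin-B2 on veins, had 4 peaks with log2 values of 3.21, 2.45, 2.42 and 2.35. The first was 267 bp before its start and the second 2219 bp inside the gene, while the others were at promoters of Trip6 and Srrt. Ephb2 had a promoter peak (rank 5935, log2 2.43). Ephb1 had one in an intron 268 kb from the start (rank 4616, log2 2.56), and Ephb6 had no listed peak.

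Semaphorin genes held 30 of the 86 GLI3 peaks. In class 3, 5 of 7 genes had at least 1. Sema3f and Sema3b, which lie in the same stretch of chromosome 9, had 4 each. All 4 of Sema3f had its own TSS as the nearest, at 6637, 13577 and 13857 bp upstream and at 2376 bp from a TSS inside the gene, with log2 values of 3.72, 2.71, 2.39 and 2.39. None of the 4 of Sema3b did, with 3 lying in Gnai2 (log2 3.37, 2.79 and 2.66) and 1 at the promoter of Ifrd2 (log2 2.89). Sema3c had a single listed peak, at its promoter 281 bp from the start (rank 4911, log2 2.53). Sema3a, a repellent for limb-innervating axons, had 8 listed peaks spread over its 477 kb, of which 1 was a GLI3 peak (rank 6070, log2 2.42). Sema3d had 2 listed peaks beyond the threshold and Sema3e had none.

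In classes 4 to 7, all 13 genes had a listed peak and 10 had a GLI3 peak. Sema4c had the most. Its 4 GLI3 peaks had log2 values of 3.71, 2.96, 2.92 and 2.86. The last 2 lay 107 and 64 bp downstream of its starts, while the one at log2 2.96 was at the promoter of Cnnm3. Promoter peaks with nearest starts of their own were also found at Sema4b (89 bp, log2 3.13), Sema4g (431 bp, log2 2.45), Sema6a (204 bp, log2 3.31), Sema6b (9 bp, log2 2.39) and Sema6d. Those of Sema4b and Sema6d were at internal starts, 11.5 and 520.1 kb from the 5′ ends of the genes. Sema6a had 8 listed peaks, 5 of them overlapping its own promoters, and 2 of the 8 were GLI3 peaks. Sema4d, Sema6c and Sema7a had 1 listed peak each, with log2 values from 1.94 to 2.11.

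Of the 9 plexin genes, 6 had a GLI3 peak. Plxna4, a co-receptor for class 3 semaphorins, had 5, all in introns. They lay 91.8, 180, 206, 243 and 408 kb from the start with log2 values of 2.81, 2.39, 2.88, 2.43 and 2.50, all below the single peak of Plxna1 and the peak ranked 64 of Plxnb1. The one at 206 kb held a GLI motif. Plxnb2 had a peak 76 bp from its start (rank 1621, log2 3.11), and Plxnc1 one in an intron 72.6 kb away (rank 1699, log2 3.09). Plxnb3 had a single listed peak, at the promoter of Bcap31. Plxna2 and Plxna3 had only peaks beyond the threshold. Plxnd1, the plexin of endothelial cells, had no listed peak.

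The neuropilins, co-receptors for class 3 semaphorins and vascular growth factors, had 6 listed peaks of which 1 was a GLI3 peak. It lay in an intron of Nrp2, 63.3 kb from the start (rank 4500, log2 2.58), and held a GLI motif 24 bp from the summit. The 3 listed peaks of Nrp1 were all beyond the threshold, the highest at log2 2.24.

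All 3 Slit genes had GLI3 peaks, 9 in total, with a median log2 value of 3.11. Slit3, at 587 kb, had 16 listed peaks, the most of any guidance gene. Its 4 GLI3 peaks had log2 values of 3.60, 3.29, 2.81 and 2.53, and lay 535 kb, 298 bp, 297 kb and, upstream, 15.5 kb from the start. A GLI motif was in 3 of them. Slit1 had 4 listed peaks, all GLI3 peaks and all in introns. One lay 27.1 kb from the start (log2 3.31). The others stood together 125 to 130 kb away, near the end of the gene, with log2 values of 3.16, 3.11 and 2.49. For each of these others the nearest TSS was that of Gm340, 31137 to 35892 bp away. Slit2 had 1 GLI3 peak 21.1 kb into the gene (rank 3116, log2 2.77) and 3 listed peaks beyond the threshold. No Slit1 or Slit2 GLI3 peak held a motif.

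Of the Robo receptors of these ligands, 1 of 4 had a GLI3 peak. Robo2 had 3 GLI3 peaks, 2 at a promoter (325 and 1420 bp before a TSS, log2 2.85 and 2.59) and 1 in an intron 318 kb away (log2 3.03). Robo1 had 6 listed peaks and none passed the threshold, the highest at log2 2.202. Its only protein-coding start in the basic annotation lies far inside the gene, and 2 of the 6 overlapped the promoter there. Robo3 had 2 listed peaks beyond the threshold and Robo4, the endothelial Robo, none.

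**Figure D4:**
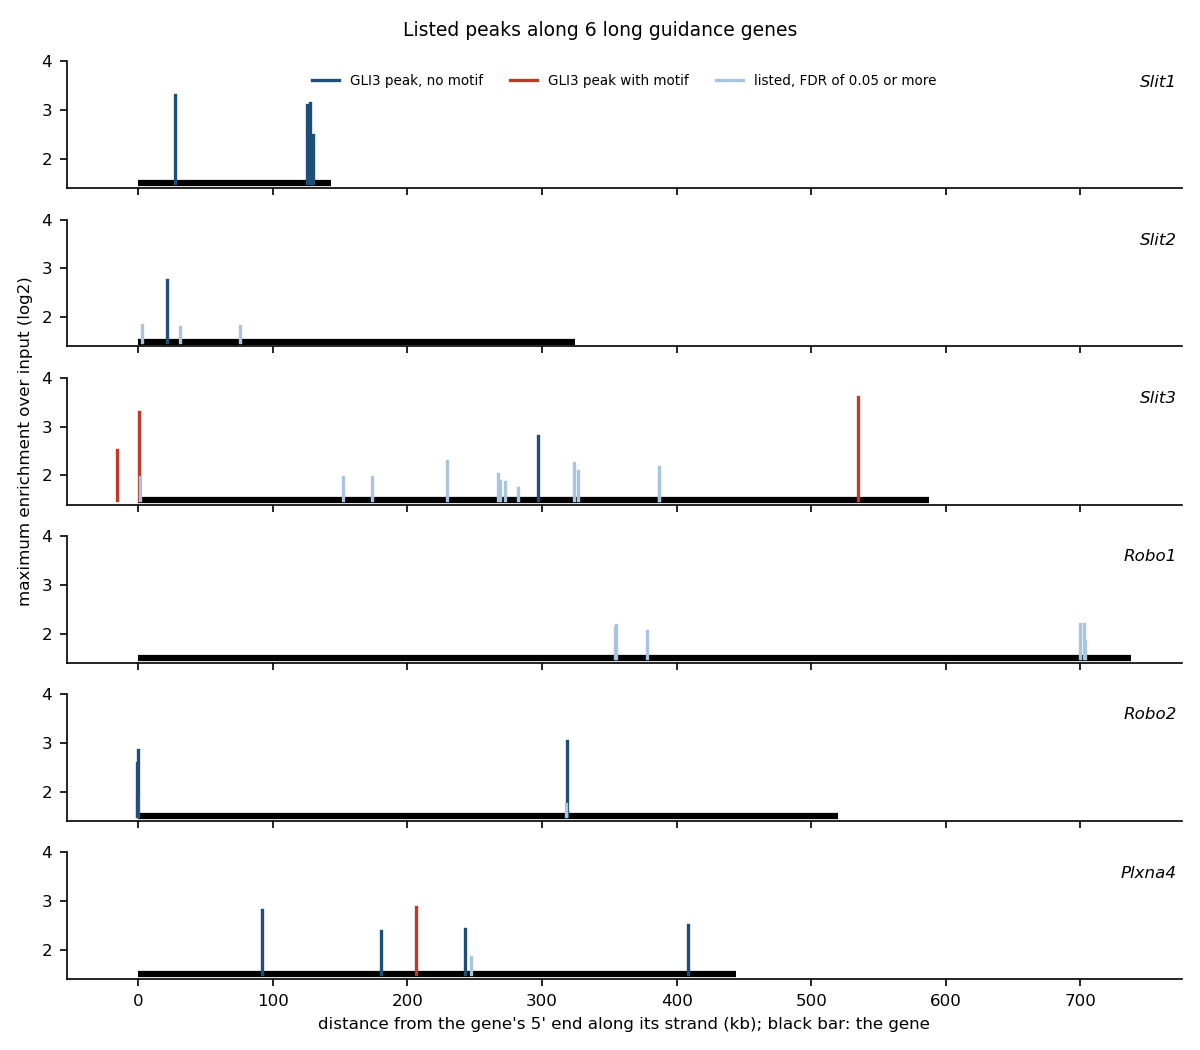
Maximum log2 fold enrichment over input (y axis of each panel, lines drawn from 1.5) of the listed peaks along Slit1, Slit2, Slit3, Robo1, Robo2 and Plxna4, against the distance in kb from the 5′ end of the gene (x axis); the black bar is the gene, red lines are GLI3 peaks with a motif, dark blue lines GLI3 peaks without one and pale lines listed peaks with an FDR of 0.05 or more. The 3 Slit1 peaks at 125 to 130 kb stand together, and the peaks of Robo1 are all pale.

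Of the Unc5 receptors, Unc5a, Unc5b and Unc5c had GLI3 peaks. Unc5a had 2, at 21.7 kb inside the gene (rank 1247, log2 3.24) and 174 bp before its start (rank 3084, log2 2.78). Unc5b had one in an intron 17.6 kb away (rank 4209, log2 2.61), and Unc5c one 146 bp from a TSS (rank 5464, log2 2.47). Unc5d had 2 listed peaks beyond the threshold.

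No listed peak was found at 7 guidance genes, namely Epha6, Epha7, Epha8, Ephb6, Sema3e, Plxnd1 and Robo4. A further 13 had listed peaks of which none was a GLI3 peak. At the FDR limit, the GLI3 peaks with the lowest values were those of Sema4f (rank 7216, log2 2.32), Sema5b (rank 7225, log2 2.32) and Epha3 (rank 7254, log2 2.32). The nearest beyond it were in Ephb2 (rank 7338, log2 2.31), near Efna2 (rank 7351, log2 2.31) and near Sema3f (rank 7390, log2 2.30). The threshold thus separated peaks that differed by less than 0.1 on the log2 scale. At the distance limit, peaks just outside were 50.6 kb from Sema3b (rank 4724, log2 2.55), 50.8 kb from Efnb1 and 51.8 kb from Sema3g (rank 3539, log2 2.71).

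To describe where the peaks lay, the 86 GLI3 peaks were divided by position. There were 46 at promoters of protein-coding genes (53.5%, 43.0 to 63.7), and 52.6% of all GLI3 peaks were. Of the 46, 24 were at promoters of guidance genes and 22 at promoters of other genes only. Of the 24, 19 had summits within 500 bp of the TSS. The other 40 were distal, 27 of them inside a guidance gene and 13 outside. For 52 of the 86 (60.5%, 49.9 to 70.1) the nearest TSS was that of a guidance gene. A total of 28 peaks lay outside guidance genes and nearer to the start of another gene, so their assignment rests on the window alone. At 10 of the 44 genes with GLI3 peaks, every peak had the TSS of another gene as its nearest, and these were Epha10, Ephb1, Efna2, Efna3, Efnb2, Sema3b, Sema3g, Sema4a, Sema4f and Plxnb3. Intronic summits made up 55.8% of the 86 and 34.5% of all GLI3 peaks. The rule takes in whole gene bodies, and its part in this share was not tested. Summits within 10 kb of another GLI3 summit made up 31.4% (22.6 to 41.8) of the 86 and 31.8% of all GLI3 peaks.

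The 111 listed peaks beyond the threshold had another distribution. Only 32.4% (24.4 to 41.6) were at promoters, against 44.8% of all 9862 such peaks on placed chromosomes. Slit3 alone held 12 of the 111 and Sema3a 7. Gene length and this share were not separated.

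Enrichment over input was compared with that of other GLI3 peaks. The 86 peaks had a median log2 fold enrichment of 2.76 (interquartile range 2.47 to 3.15, highest 4.85), and all GLI3 peaks had 2.69 (2.47 to 3.06). The interval of the median, 2.58 to 2.88, included the value over all, so no difference was detectable in this number of peaks. Among the 1000 highest ranks were 13 of the 86 (15.1%, 9.05 to 24.2), against 13.7% of all GLI3 peaks. Promoter peaks of guidance genes had a median of 2.89 (2.50 to 3.31), peaks at promoters of other genes 2.63 (2.45 to 2.85), and distal peaks 2.78 (2.56 to 3.11). Each interval included the medians over all GLI3 peaks, 2.70 at promoters and 2.69 for distal peaks. By family the medians ran from 2.50 in EphB genes to 3.11 in Slit genes, from 8 and 9 peaks. The 22 peaks at promoters of other genes included none of the 1000 highest ranks (0%, 0 to 14.9). Of the 24 at guidance gene promoters, 6 reached them (25%, 12 to 44.9). Both intervals included the 13.7% of all promoter GLI3 peaks.

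**Figure D5:**
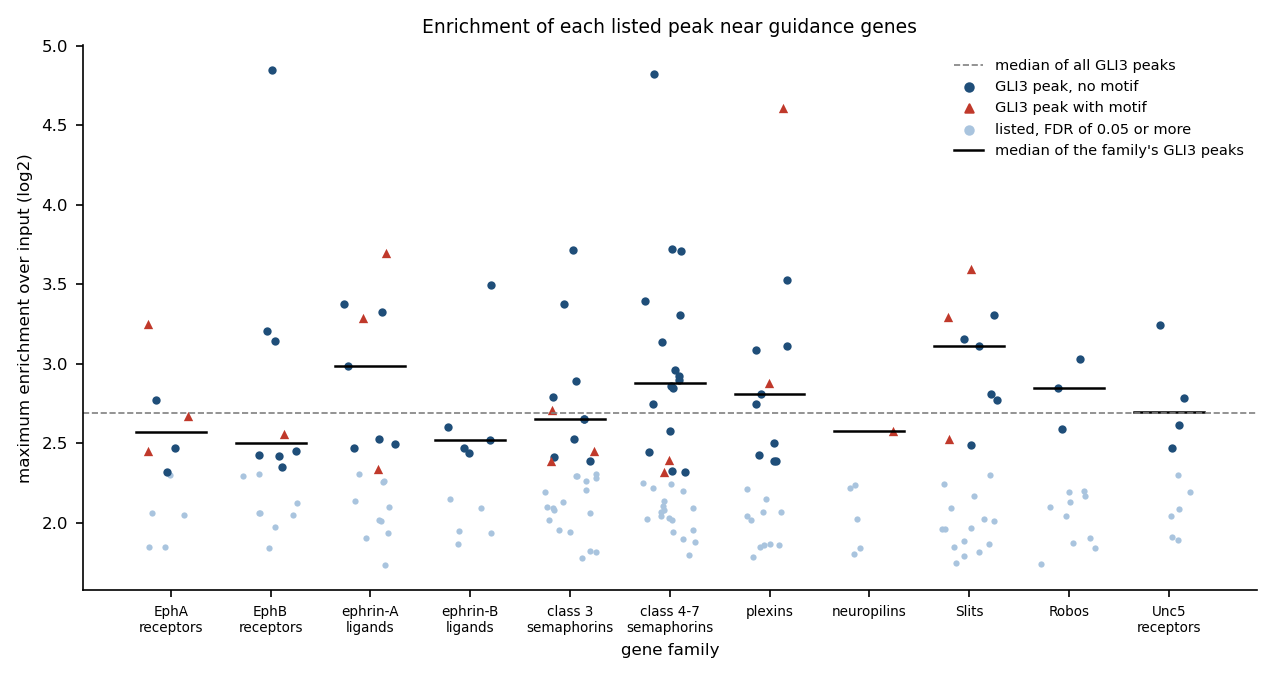
Maximum log2 fold enrichment over input (y axis) of each listed peak by gene family (x axis); dark points are GLI3 peaks, red triangles GLI3 peaks with a motif, pale points listed peaks with an FDR of 0.05 or more, black lines the median of the GLI3 peaks of a family and the dashed line the median of all GLI3 peaks. The medians run from 2.50 to 3.11, and points above log2 4.5 are found in 3 families only.

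A GLI motif was present in 18 of the 86 GLI3 peaks (20.9%, 13.7 to 30.7), the share over all GLI3 peaks being 20.8%. In windows 2 kb to either side of the same summits it was 14.5% (25 of 172, 10.04 to 20.6), against 10.7% over all. The intervals of the peaks and of their flanks overlapped. By class, the motif was found in 5 of 24 promoter peaks of guidance genes, 3 of 22 at promoters of other genes and 10 of 40 distal peaks. Their intervals were 9.2 to 40.5%, 4.7 to 33.3% and 14.2 to 40.2%. These included the shares over all GLI3 peaks, 17.9% at promoters and 24.0% for distal peaks. The 18 peaks held 20 matches, of which 7 lay within 50 bp of the summit and 4 between 150 and 250 bp away. No word with 2 or fewer mismatches was found in 9 peaks, and that wider search was met by 89.5% of the 86 and 82.7% of all GLI3 peaks.

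No match in these peaks was exact. Of all GLI3 peaks 2.84% held the exact consensus, and with 0 of 86 the interval of the share reached 4.28%, which includes that value. Among the summit windows of listed peaks at guidance genes, the only exact consensus was the Slit3 site printed above, at chr11:35507975-35507983 in an intron 387 kb into the gene, reached by the windows of both listed peaks there, with log2 values of 2.17 and 2.01 and an FDR of 0.05 or more. Slit3, which had the most listed peaks, also had the most with a match, 7 of 16, and both peaks that share the exact site are among the 7. Over all listed peaks 17.9% held a match. In the match nearest to each summit the mismatch fell most often at position 5 or 9 (4 peaks each of 18) and at position 4 in none. Over all GLI3 peaks whose nearest match had 1 mismatch it fell most often at position 2 (28.2%) and at positions 5 and 9 in 12.9% and 13.8%. With 18 peaks these orders were not compared further.

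RefSeq promoters of build GRCm38.p6, covering 250 bases before to 50 bases after a start, were searched for the same words. A match was present in 6 of 72 promoters of 56 guidance genes (8.33%) and in 6.74% of 32851 promoters overall. Among guidance genes with a GLI3 peak at their own promoter it was 3 of 26 promoters.

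Other genes of the same pathways were counted by the same windows. In a list of 15 genes of the netrin system and its partners, whose netrins bind Unc5 receptors, 12 had a GLI3 peak (80.0%, 54.8 to 93.0), with 22 peaks in all, beside 39.4% of all genes. Ntn3, a netrin, had a promoter peak ranked 97 with a log2 value of 4.42, and Draxin, a secreted inhibitor of axon outgrowth, one ranked 715 at 3.52. Ntn1, the netrin best known for commissural axons, had 2, the higher at 2.43. Dcc, the attractive netrin receptor, had 2 listed peaks and no GLI3 peak. In a list of 30 intracellular effectors, adaptors and regulators of the cytoskeleton downstream of these receptors, 17 had a GLI3 peak (56.7%, 39.2 to 72.6), with 29 peaks. That interval includes the 39.4% of all genes, so the share was not distinguishable from it at this number of genes. The strongest was at the promoter of Nck2, an adaptor for Eph receptors (rank 103, log2 4.40), followed by one near Farp2 (rank 390, log2 3.803), 414 bp from the start of Hdlbp, and one at Dpysl3 (rank 519, log2 3.68), which encodes a collapsin response mediator. The Slit effectors Srgap1 and Srgap2 had no listed peak, and Srgap3 had 1 beyond the threshold.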

How the data were processed

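GLI3-FLAG ChIP-seq of E10.5 mouse forelimb buds was analysed from 1 deposited peak list. Per the submitters' processing notes, Bowtie2 2.2.5 and mm10 were used. The study's methods name CisGenome for peak calling and 2 biological replicates. The list is attached to ChIP replicate 1 and was treated as a joint call of both replicates, which it does not itself state. The authors' deposited values are an FDR, which is a q-value, the maximum log2 fold enrichment over input, a T score that sets the ranks, and a Poisson p-value on the −log10 scale. Peak lengths in bp are also the authors'. These were used as given. Libraries were amplified with 15 PCR cycles.

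Genes came from GENCODE M21 (basic set), with the TSSs of protein-coding transcripts, and 100 protein-coding symbols without such a transcript or off placed chromosomes were left out. Coordinates are as listed, on mm10. No peak ran past the end of its chromosome, and 5 on unplaced sequence were omitted. Windows reached 50 kb from each TSS or the gene body, and a peak was counted once however many genes it was near. Promoter peaks shared at least 1 bp with the region from 2 kb before to 1 kb after a TSS, and the rest were distal. Motifs were searched in the 501 bp around each summit of GRCm38.p6 with pysam 0.24.0. Shares have 95% Wilson intervals, which cover counting error only. Python 3.11.15 with pandas 2.3.3 was used. The linking and motif steps were tested on simulated data. Alternatives changed the FDR threshold, distance, gene body, promoter window and motif window.

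Members, lists and comparisons were chosen with earlier results of these data known. By rule, full values are given for the 15 highest-ranked GLI3 peaks of these genes and for the gene with the most GLI3 peaks per family, genes without a listed peak are named, and matches are printed for the 5 highest-ranked GLI3 peaks with a match and for exact matches, outside chromosome 18. Other genes and peaks described, the sequences with 2 mismatches, the counts by neighbouring genes, the counts by role with nearest TSSs, the densities without single genes and the genes named in the pathway lists were chosen after their values were seen.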

Additional observations from a re-analysis of the deposited data

How the results depend on the processing

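The 7 main results over all guidance genes were computed under 35 alternatives, and 26 stayed within the limits set for a count, share or median while 9 moved. The number of genes with a GLI3 peak, 44, ranged from 35 to 57 and stayed within its limit in all of them. Among these alternatives, the share over all genes is given only for every listed peak (59%) and for nearest TSSs (21.6%). Whether the difference from all genes held at the other settings is therefore not shown. With every listed peak, the number of peaks was 197, the density 13.7 per Mb, the promoter share 41.6%, the share nearest to a guidance gene 70.6% and the median log2 fold enrichment 2.25. Over all listed peaks the promoter share was 48.1%, inside the interval of the guidance genes (35.0 to 48.6), and the median was 2.23. With an FDR under 0.01 the median at guidance genes was 2.97, which follows from the stricter threshold, and that of all such peaks was 2.90. A distance of 10 kb left 53 peaks, and windows without gene bodies gave 10.6 peaks per Mb. Requiring the exact consensus gave a motif share of 0%. Giving each peak only to the gene of its nearest TSS, an alternative added after seeing the data, left 39 genes and 71 peaks. Counting within the windows but by nearest TSS, also added then, took the peaks of ligand genes from 53 to 27 and those of receptor genes from 33 to 25.

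No paired analysis was possible because neither ChIP replicate has values of its own in the deposited list. Leaving out a replicate was not run for that reason. The study's methods state a minimum read number per sample, but the totals behind this list are not in it, and the effect of depth on the peaks beyond the FDR threshold was not tested.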

Other observations

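In 5 guidance genes, no GLI3 peak counted by the 50 kb rule had the gene's own TSS as its nearest, but a GLI3 peak farther away and outside the gene did. Of these, Efnb2 had 1 GLI3 peak within the rule, nearer to another gene, and the others had 0. For Efnb1 the closest such peak was 63.2 kb away (rank 5928, log2 fold enrichment 2.43). For Epha5 it was 218 kb away (rank 6685, log2 2.36) and for Sema3d 293 kb (rank 3849, log2 2.66). For Efnb2 it was 420 kb away (rank 6584, log2 2.37), and for Robo1 434 kb (rank 2753, log2 2.84). The Robo1 value is the highest of the 5. It cannot be compared with the 6 peaks counted for that gene, which all lay beyond the threshold. On placed chromosomes such peaks reached at most log2 2.3139, and GLI3 peaks began at 2.3142.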
